A study of Mus musculus with 2 samples.

Results

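The genes described here are 10 mouse genes of the feedback arm of ERK signalling: the phosphatases Dusp4, Dusp5 and Dusp6, the Sprouty genes Spry1, Spry2 and Spry4, the Sprouty-related genes Spred1 and Spred2, and the ETS transcription factors Etv4 and Etv5. They were taken by symbol from the deposited table, with every probe set that carried the symbol. Of the 10 genes, 9 had a probe set, 28 probe sets in all, out of 19086 genes with a probe set in the table. No probe set carried the symbol Dusp5, which was not analysed here.

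The study compared transcript levels of the mouse preadipocyte line 3T3-L1 on 1 Affymetrix array per group. The first group was transduced with the empty retroviral vector pMXs-puro, and the second with the same vector carrying Fbxl10, the older name of Kdm2b, a histone demethylase gene. The labels describe the viral LTR that drives the insert as a weak promoter, and do not say whether the cells were a pool or a clone. Both groups were grown in 10% fetal bovine serum and taken at day 2 after the start of treatment with insulin (1 µg/ml), dexamethasone (0.25 µM) and isobutylmethylxanthine (0.5 mM), agents that the controls received too. With 1 array per group there was no replicate, no test and no p-value, and precision is limited by the number of arrays. Fewer cells of a type and less RNA per cell cannot be told apart in such bulk RNA.

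ERK is the last kinase of the Ras, Raf and MEK cascade that growth factor receptors switch on. Active ERK raises the transcription of its own inhibitors, which makes their transcripts a familiar readout of the pathway. DUSP proteins remove the phosphates that activate ERK, Sprouty proteins act between the receptor and Raf, and SPRED proteins bring the Ras inactivator neurofibromin to the membrane. ETV4 and ETV5 are ETS factors of the PEA3 group that are induced by fibroblast growth factor signalling. In preadipocytes ERK is active early after hormonal induction, and ERK can also phosphorylate and restrain PPARγ, the nuclear receptor that drives fat cell formation.

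The promoter sequence is shown for the members that were measured on both arrays and had one, so that shared or missing motifs can be read directly. RefSeq promoter windows on GRCm38.p6 (250 bases before to 50 after the annotated start) were matched for 7 of the 10 genes, with 8 windows in all, since Etv5 has a pair of starts. Dusp4, Spry4 and Etv4 were not matched. The 250 bases before the start are printed for Dusp6 (chr10:99262981-99263230, plus strand), Spred1 (chr2:117120821-117121070, plus strand), Spred2 (chr11:19924192-19924441, plus strand), Spry2 (chr14:105896820-105897069, minus strand) and Spry1 (chr3:37639697-37639946, plus strand), each read 5′ to 3′ on the gene's strand, with capitals marking the ETS core CGGAAG on either strand.
Dusp6: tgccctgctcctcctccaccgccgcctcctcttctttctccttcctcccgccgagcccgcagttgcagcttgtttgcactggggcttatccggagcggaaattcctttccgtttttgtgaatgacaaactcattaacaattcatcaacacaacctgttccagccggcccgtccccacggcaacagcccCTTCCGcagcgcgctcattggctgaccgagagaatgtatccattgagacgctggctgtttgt
Spred1: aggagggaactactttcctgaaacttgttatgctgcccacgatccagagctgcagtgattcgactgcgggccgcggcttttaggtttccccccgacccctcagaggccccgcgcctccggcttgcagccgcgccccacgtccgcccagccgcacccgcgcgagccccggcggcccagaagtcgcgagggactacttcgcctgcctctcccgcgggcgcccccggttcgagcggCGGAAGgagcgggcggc
Spred2: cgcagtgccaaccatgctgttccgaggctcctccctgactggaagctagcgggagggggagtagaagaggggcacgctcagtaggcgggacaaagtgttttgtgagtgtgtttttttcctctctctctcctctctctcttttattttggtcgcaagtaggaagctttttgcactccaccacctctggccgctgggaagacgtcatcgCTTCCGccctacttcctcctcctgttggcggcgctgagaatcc
Spry2: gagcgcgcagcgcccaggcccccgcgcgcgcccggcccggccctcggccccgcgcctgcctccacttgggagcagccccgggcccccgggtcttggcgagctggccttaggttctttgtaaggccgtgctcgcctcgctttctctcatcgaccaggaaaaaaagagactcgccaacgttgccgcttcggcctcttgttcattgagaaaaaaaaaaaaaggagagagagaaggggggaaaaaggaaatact
Spry1: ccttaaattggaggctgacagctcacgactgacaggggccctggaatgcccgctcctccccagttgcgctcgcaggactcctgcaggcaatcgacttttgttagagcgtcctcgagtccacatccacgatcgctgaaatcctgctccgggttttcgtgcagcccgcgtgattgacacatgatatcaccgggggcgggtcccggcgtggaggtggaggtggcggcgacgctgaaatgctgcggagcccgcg

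The ETS core CGGAAG, the centre of the site that ETS factors bind, was found in 3 of the 8 windows of these genes and in 16.9% of all 32851 windows of the same length. In Dusp6 it lay on the opposite strand, its bases 62 to 57 before the start. In Spred1 it lay 17 to 12 bases before the start, with a further copy on the opposite strand at bases 8 to 13 after it. In Spred2 it lay on the opposite strand, 43 to 38 bases before the start. The cyclic AMP element TGACGTCA and the AP-1 site TGANTCA were found in 0 of the 8 windows, against 1.79% and 7.81% of all windows, and the TATA box TATAAA in 0 against 13.6%. The CArG box, the site of serum response factor, was found in 1 of the 8, that of Dusp5, where a pair of copies stood side by side, against 1.63% of all windows. Both strands were searched, and no match overlapped another motif. Because the CArG pattern reads as itself on the opposite strand, each copy is counted on both. A match of letters describes the window and says nothing of binding, and the printed windows do not contrast higher with lower members.

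The members went in opposite directions. In the library labelled Fbxl10 overexpression, Dusp6 was 4.12-fold higher than in the empty vector library, whereas Spry4 was 3.03-fold lower and Dusp4 2.23-fold lower. The other detected members, Spry2, Spred1, Etv5, Spred2 and Spry1, lay within 2-fold. A probe set counted as detected from 19.4 upwards on either array, this being the median of all signals, and the brightest detected probe set stood for its gene. By this rule 8 genes were detected: 1 was higher by at least 2-fold and 2 were lower by at least 2-fold. Over all 11326 detected genes, the shares were 9.75% higher and 5.33% lower by at least 2-fold. With signals below 19.4 raised to that value, the shares over all genes were 6.75% and 4.26% and the counts of members were again 1 and 2. The median log2 difference of the members was 0.52, against 0.06 over all detected genes, and ran from 0.30 to 0.58 over 12 settings. As deposited, 5 members were above 0 and 3 below, beside 6117 above and 5203 below over all detected genes. Etv5, among the 5, reached the threshold only in the library where it was higher. With both signals required to reach it, 7 members were detected, with a median of 0.43. With counts this small the shares are a description of these 8 genes.

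**Figure D1:**
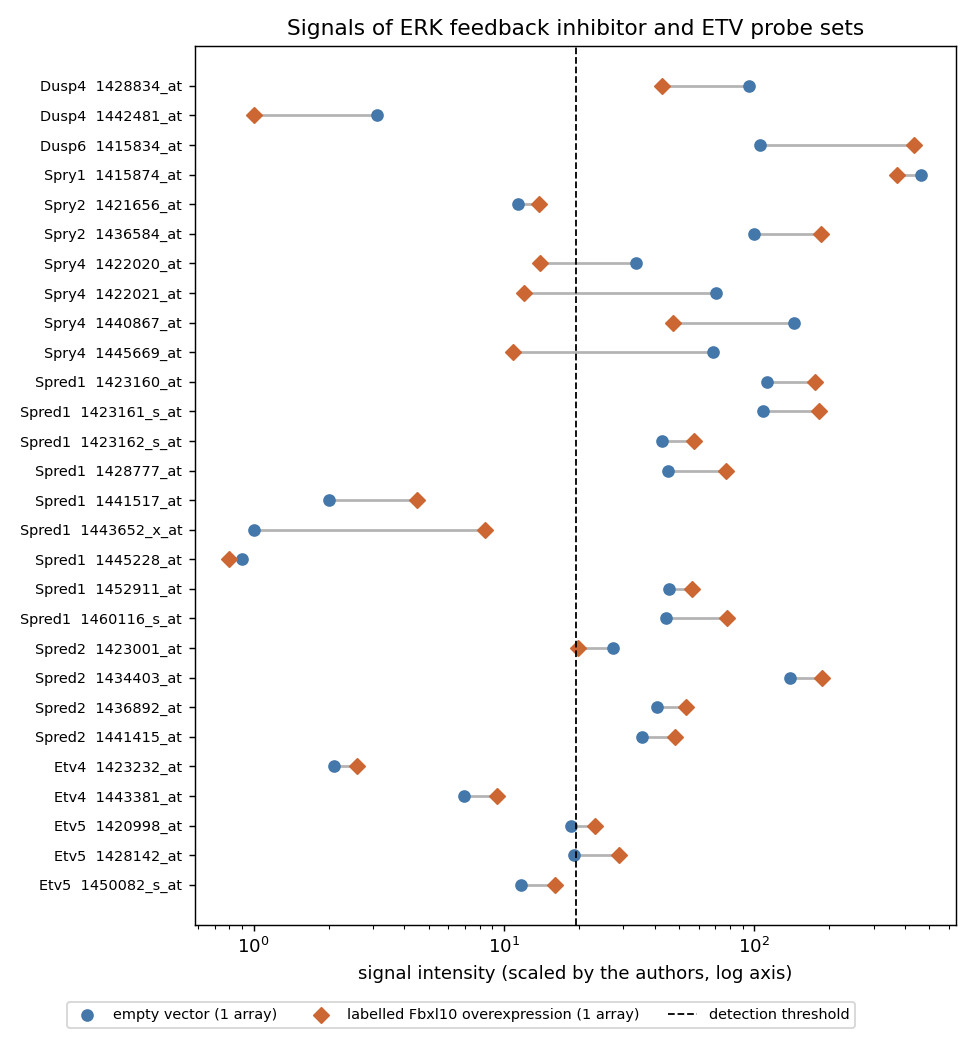
Signal intensity (log axis) of all 28 probe sets with the empty vector (circles) and in the library labelled Fbxl10 overexpression (diamonds), 1 array each, with the detection threshold of 19.4 dashed. Dusp6 moves to the right, from 105.4 to 434.1, all 4 Spry4 probe sets move to the left, and both Etv4 probe sets lie below the threshold on both arrays.

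The target gene did not follow its label. Probe sets 1452198_at and 1459861_s_at of Fbxl10 were 1.23-fold and 1.33-fold lower in the library labelled for its overexpression. Where they lie relative to the cloned insert is not stated in the labels, so a probe set outside it would check nothing, and all directions are between libraries as labelled. As for the cell type, all 7 detected adipocyte markers were lower by 2-fold or more in that library, Pparg by 6.05-fold (912.2 and 150.8), and their summed signals were 16583 and 1795. All 6 preadipocyte or fibroblast markers were detected and above 0 as deposited, 2 of them at least 2-fold higher, with summed signals of 18897 and 27778. Of all 11326 detected genes, 6117 were above 0. Dlk1 was close to level, at a log2 difference of 0.14 (3825 and 4226), less than the mean of 0.22 over the hybridization spike-in probe sets. All 4 endothelial markers lay below the threshold on both arrays. Of 4 macrophage markers, Adgre1 and Ptprc lay below it and Cd68 and Csf1r were close to it (summed signals 42.0 and 56.4), and of 4 muscle markers Des alone reached it (26.8 and 14.6). These fat cell markers differed alongside every value given here, and their part in those values was not tested.

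Among the phosphatases, Dusp6 encodes a cytoplasmic enzyme that acts on ERK above other MAP kinases. Its single probe set, 1415834_at, read 105.4 with the empty vector and 434.1 in the library labelled Fbxl10 overexpression, a log2 difference of 2.04. It was the highest of the 8 detected members and ranked 224 from the top of 11326 detected genes (1.98%). The authors' deposited table gives a log2 ratio of 1.9. As a scale for such values, the spread between probe sets of 1 gene was taken, from probe sets measured on both arrays only. At this brightness (mean signal 100 to 500, 2359 genes) its SD was 0.281 on the log2 scale. The difference of Dusp6 was 7.27 times that spread. The spread is that of probe sets within this pair of libraries, not of separate cultures. The Dusp6 window printed above holds the ETS core.

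Dusp4, which encodes a nuclear phosphatase of ERK and related kinases, lay on the other side. Probe set 1428834_at read 95.1 and 42.7, a log2 difference of -1.16, and the authors' deposited table gives -1.1. The difference was 3.22 times the spread between probe sets at its brightness (SD 0.359 for mean signals under 100). The further probe set 1442481_at read 3.1 and 1.0, below the threshold on both arrays, and gives no fold. The log2 differences of Dusp6 and Dusp4 were 3.20 apart, a ratio of 9.17-fold that no common scaling of an array can alter. It ran from 3.00 to 3.36 over the 11 settings in which both genes were detected. Dusp5, a further nuclear ERK phosphatase, was not measured.

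The 3 Sprouty genes separated as well. Spry4 was lower at each of its 4 probe sets. Probe set 1440867_at, the single one measured on both arrays, read 144.1 with the empty vector and 47.6 in the library labelled Fbxl10 overexpression, a log2 difference of -1.60, which ranked 222 from the bottom of the detected genes (1.96%). The other three were above the threshold in the empty vector library and below it in the other, where a signal gives a bound and not a level. Probe set 1422021_at (70.5 and 12.0) was at least 3.63-fold lower. Probe set 1445669_at (68.7 and 10.9) was at least 3.54-fold lower. Probe set 1422020_at (33.8 and 13.9) was at least 1.74-fold lower. The lower signal of Spry4 was thus seen at every probe set, and its size was measured at 1440867_at alone.

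The size for Spry4 also depended on whose ratio was taken. For 1440867_at the authors' deposited table gives a log2 ratio of -0.9, which is short of 2-fold, against -1.60 from the deposited signals. For the other three the authors' deposited table gives -2.2, -2.3 and -1.4. Over the 11 settings that keep this probe set, Spry4 lay between 1.87-fold and 3.53-fold lower. No source used here states how the authors computed their ratio.

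Spry2, which like Spry4 encodes an inhibitor of receptor tyrosine kinase signalling, went the other way. Probe set 1436584_at read 100.3 and 184.9, 1.84-fold higher (log2 difference 0.88, and 0.9 in the authors' deposited table), which is 3.14 times the spread between probe sets. Its other probe set, 1421656_at, read 11.4 and 13.8, below the threshold on both arrays. Spry2 and Spry4 were 2.48 apart on the log2 scale, between 1.80 and 2.55 over the 11 settings that keep the brightest probe sets. Spry1 read 464.1 and 372.6 at 1415874_at, 1.25-fold lower (log2 difference -0.32), close to the spread between probe sets (1.13 times) and so not separable from it. Against Spry1, Spry2 was higher by 1.20 on the log2 scale.

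Spred1 was higher at all 6 of its detected probe sets, each of which was measured on both arrays. The brightest, 1423161_s_at, read 108.8 with the empty vector and 181.6 in the library labelled Fbxl10 overexpression, a log2 difference of 0.74, or 1.67-fold. Next to it, 1423160_at read 112.6 and 174.9 (0.64). The 4 dimmer probe sets agree in direction. Probe set 1460116_s_at read 44.4 and 77.7 (0.81), 1428777_at 45.1 and 77.2 (0.78), 1423162_s_at 43.0 and 57.3 (0.41) and 1452911_at 45.8 and 56.3 (0.30). The 6 differences had an SD of 0.21, which is between probe sets that may share sequence and is no measure of cultures. None of the 6 reached 2-fold by the signals, and the authors' deposited table gives between 0.5 and 1.0. The remaining 3, 1441517_at (2.0 and 4.5), 1443652_x_at (1.0 and 8.4) and 1445228_at (0.9 and 0.8), lay below the threshold on both arrays.

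Spred2, the paralogue, was less uniform. Probe set 1434403_at read 138.9 and 187.0, 1.35-fold higher (log2 difference 0.43). Probe sets 1441415_at (35.6 and 48.4) and 1436892_at (41.1 and 53.4) were at 0.44 and 0.38. Probe set 1423001_at read 27.4 and 19.7 and was lower, at -0.48. The last of these was dim, and its value in the library labelled Fbxl10 overexpression was just above the threshold. The difference at the brightest probe set (0.43) was within the SD of 0.45 over the 4. Spred1 stood 0.31 above Spred2 on the log2 scale. Both windows printed above hold the ETS core.

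The ETV factors were at or under the limit of detection. Etv5 reached 19.4 in 1 library alone, the one labelled Fbxl10 overexpression. Probe set 1428142_at read 19.0 and 28.9, at least 1.49-fold higher, and 1420998_at read 18.5 and 23.1, at least 1.19-fold higher. The third probe set, 1450082_s_at, read 11.7 and 16.0, below the threshold. Etv4 read 2.1 and 2.6 at 1423232_at and 6.9 and 9.4 at 1443381_at, below the threshold on both arrays, so no difference in Etv4 could be measured. All 5 ETV probe sets had the higher signal in that library, at a brightness where the median probe set also read higher there (17.6 and 21.3 over all 45101 probe sets).

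**Figure D2:**
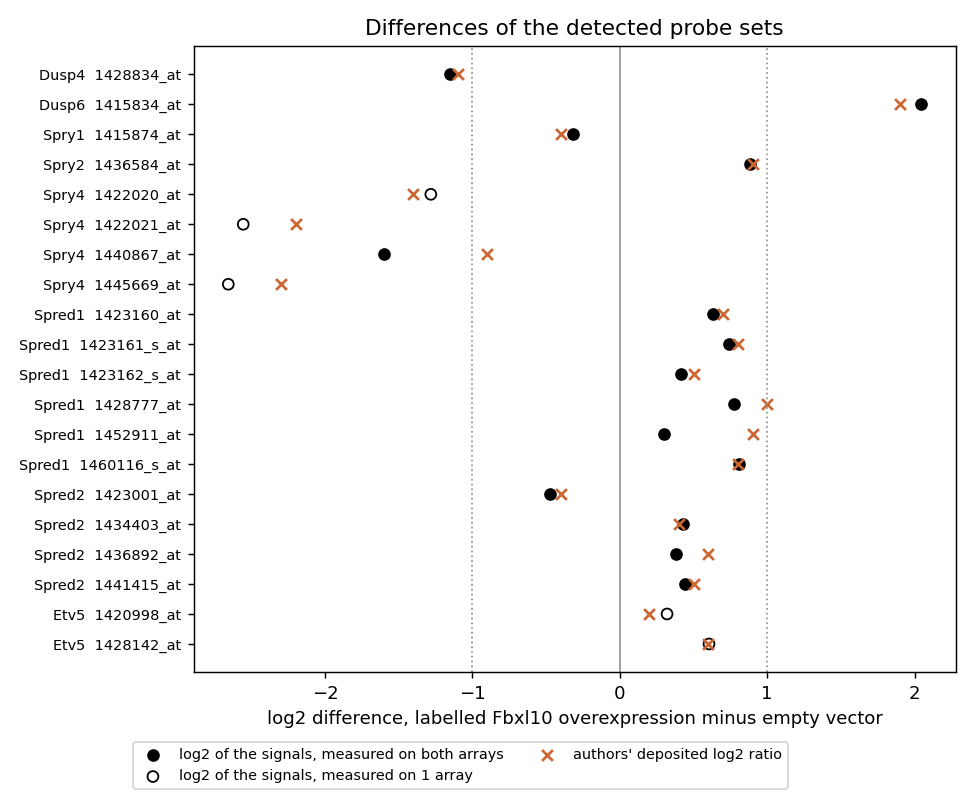
Log2 difference, library labelled Fbxl10 overexpression minus empty vector, for the 20 detected probe sets of these genes, from the signals (filled where measured on both arrays, open where measured on 1) and from the authors' deposited ratio (crosses). Dotted lines mark 2-fold, and the largest gap between both ratios is at Spry4 1440867_at, -1.60 against -0.9.

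The direction of each detected member held over the settings tried, but not every setting could move a value. The second table held the same signals. For Dusp6, with its single probe set, the filters, the raised dim signals and the median over probe sets all returned 2.04. Dusp6 lay between 1.82 and 2.04 on the log2 scale over 12 settings, and Dusp4 between -1.38 and -1.10 over the 11 in which it was detected. Spry2 lay between 0.66 and 0.90, Spred1 between 0.52 and 0.80 and Spred2 between 0.21 and 0.43. Spry1, at -0.54 to -0.26, also kept its sign. Etv5 lay at 0.26 to 0.61 over 10 settings. It was detected only through the library where it was higher, so its sign as deposited came with its detection. The array-wide shift matters for the small values: the median over detected probe sets was 0.11 and the mean of 18 hybridization spike-in probe sets 0.22 above 0 on the log2 scale, against which Spred2 and Etv5 have to be read.

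**Figure D3:**
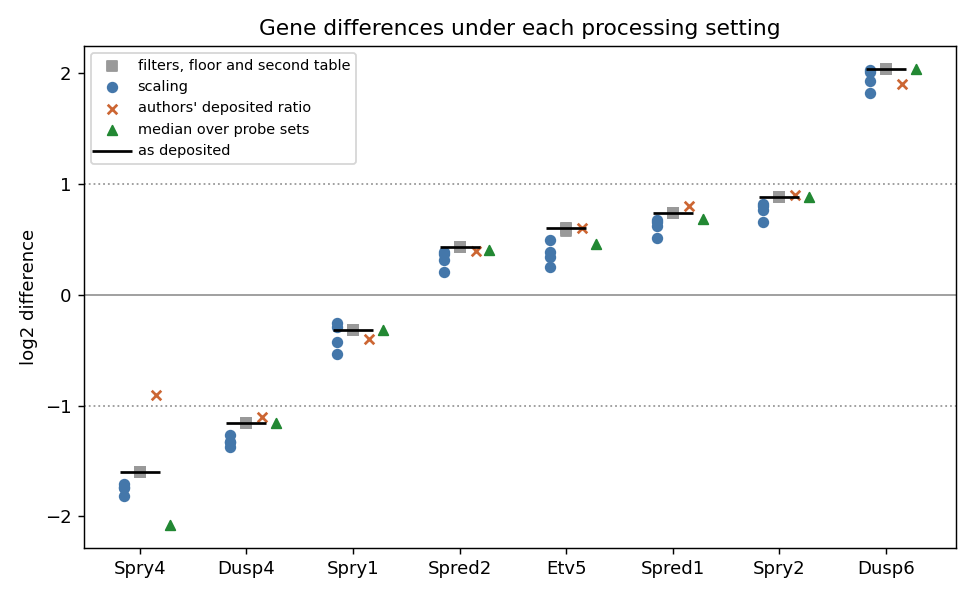
Log2 difference of each detected gene as deposited (bar) and under the alternative scalings, filters, authors' ratio and median over probe sets (symbols), with dotted lines at 2-fold. Dusp6 stays above the upper line and Dusp4 below the lower one in each setting shown, and Spry4 ranges from -1.82 to -0.90 at its brightest probe set, with its median over probe sets (triangle) resting on signals below the threshold.

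Other genes of the pathway were taken from 6 lists. Of 94 genes listed, 81 were detected, of which 16 (19.8%) were past 2-fold on the higher side and 5 (6.17%) on the lower, beside the 9.75% and 5.33% of all detected genes given above. With both signals required to reach the threshold, 12 of 75 list genes were at least 2-fold higher and 5 lower. All genes gave 645 and 439 of 10112 under that rule. As deposited, the median log2 difference of the 81 was 0.32. Of the kinases and adaptors of the cascade itself, 19 of 21 detected (90.5%) lay within 2-fold, a share near the 84.9% of all detected genes. Their median of 0.06 equalled that of all detected genes, and its sign depended on the scaling (-0.16 at the lowest, with spike-in centring). The adaptor gene Gab1 was 2.98-fold higher (55.5 and 165.5), and Rps6ka1, a kinase downstream of ERK, 2.63-fold lower (68.5 and 26.0).

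Negative regulators outside the member families mostly lay within 2-fold, 8 of 11 detected genes (72.7%, beside 84.9% of all detected genes). Past 2-fold, 2 were higher (18.2%) and 1 was lower (9.09%), beside 9.75% and 5.33% of all detected genes. With both signals required to reach the threshold, which leaves out Il17rd, 1 of 10 was higher, beside 645 of all 10112 genes. Counts this small describe these genes only. Il17rd, which encodes the FGF signalling inhibitor Sef, read 10.4 and 72.5, at least 3.74-fold higher. Dab2, an endocytic adaptor, was 2.81-fold higher (106.7 and 299.4). Lrig1, a membrane inhibitor of the EGF receptor, was 6.75-fold lower, from 2196 to 325.3. Il17rd and Lrig1, like Dusp6 and Spry4, thus stood far apart in the same pair of libraries. Among the other dual specificity phosphatases, 8 of 9 detected genes (88.9%) lay within 2-fold, again near the share of all genes. Dusp18 was 2.67-fold lower (83.1 and 31.1) and Dusp7, a close relative of Dusp6, was highest at 0.77, with its 3 probe sets between 0.09 and 1.04.

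Among other ETS factors, 4 of 13 detected genes (30.8%) were higher by at least 2-fold as deposited, beside 9.75% of all detected genes. With spike-in centring 2 were, as Elk3 and Ets1 fell short, beside 757 of all 11326 genes. By the authors' deposited ratio 3 were, with Elk3 at 0.8 on the log2 scale. With both signals required to reach the threshold, which leaves out Etv1, 3 of 12 were, beside 645 of all 10112 genes. Etv1, the third factor of the PEA3 group beside Etv4 and Etv5, read 18.8 and 74.1, at least 3.82-fold higher by the signals. The authors' deposited table gives it a log2 ratio of 1.6, short of that bound. Elf1 was 2.53-fold, Elk3 2.26-fold and Ets1 2.02-fold higher. Etv3, a repressor of the family, was 2.69-fold lower at its brightest probe set (248.6 and 92.3), while its 4 detected probe sets ran from -1.43 to -0.47 on the log2 scale. Within the PEA3 group the library labelled Fbxl10 overexpression thus had a measurable signal for Etv1, one near the threshold for Etv5 and none for Etv4.

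Other transcripts known to respond to ERK included both higher and lower genes. Past 2-fold, 7 of 17 detected genes were higher and 0 lower, a share of 41.2% higher beside the 9.75% over all detected genes. With signals below the threshold raised to it, 6 of 17 were higher, beside 6.75% of all genes. With both signals required to reach the threshold, 6 of 15 were, beside 645 of all 10112. Where a signal of 100 was required, 3 of 9 were, beside 485 of all 7329. As deposited, the other 10 of the 17 lay within 2-fold. Below 0 were 3 of the 17: Plaur, Myc (-0.67) and Egr2 (-0.62), the last pair named after their values were seen. The median was 0.67. The count of 0 lower became 1 with spike-in centring, quantile normalization or the brightness trend removed. Cyclin D1 (Ccnd1) was highest at 2.43 on the log2 scale, followed by the ephrin receptor gene Epha4 at 2.05, with signals of 23.1 and 95.6. The early response gene Ier3 was at 1.80, Fos at 1.69, Egr3 at 1.68 and Junb at 1.24. The empty vector signals of Ier3 (31.3), Fos (27.9) and Egr3 (23.6) were not far above the threshold. The authors' deposited table gives log2 ratios of 1.2 for Fos and 2 for Egr3. Hbegf, an EGF receptor ligand, was measured on 1 array and was at least 1.12-fold higher. The urokinase receptor gene Plaur was lowest, at least 1.73-fold lower by the signals, though the authors' deposited table gives a log2 ratio of -0.4, short of that bound.

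Of the growth factor receptors that feed the cascade, 10 were detected, and 7 (70%) lay within 2-fold, beside 84.9% of all detected genes. Past 2-fold, 2 were higher (20%) and 1 was lower (10%), beside 9.75% and 5.33%. The median log2 difference of the 10 was 0.40. With both signals required to reach the threshold, 1 of 9 was higher, beside 645 of all 10112 genes. Egfr was 5.26-fold higher at its brightest probe set (61.6 and 323.9), while its 5 probe sets ran from -0.11 to 2.39 on the log2 scale. Fgfr2 was 2.79-fold lower (1567 and 560.9). Fgfr4, near the threshold, was at least 1.82-fold higher by the signals, and the authors' deposited table gives a log2 ratio of 0.8, short of that bound.

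**Figure D4:**
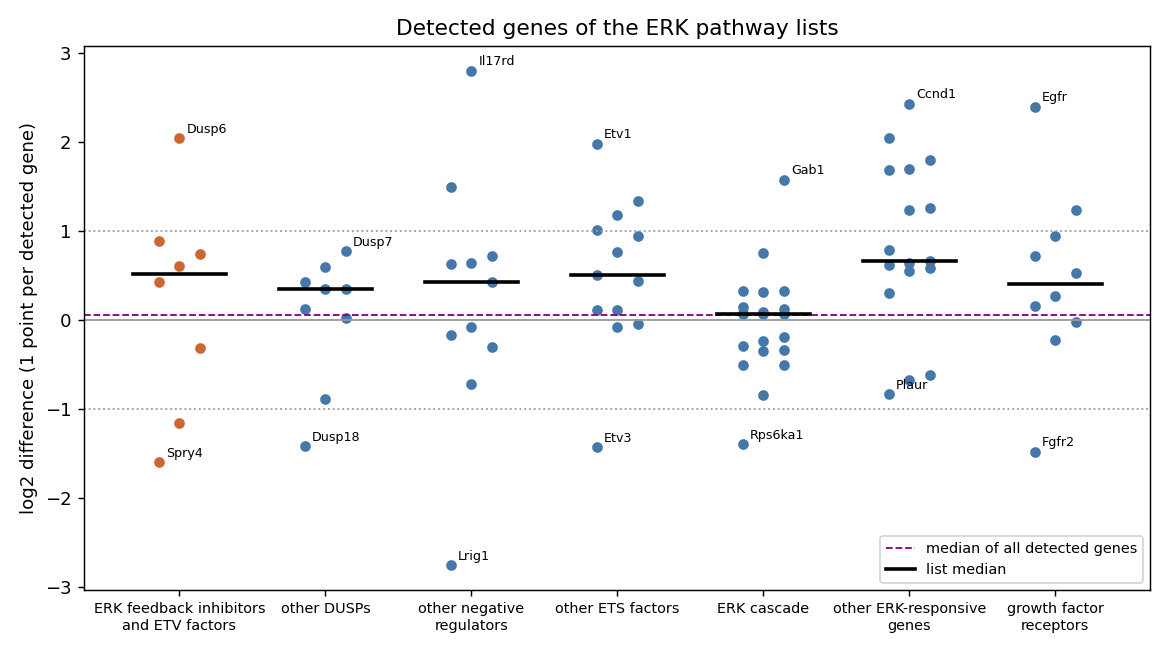
Log2 difference of every detected gene in the member list and the 6 pathway lists (1 point per gene), with list medians as bars, the median of all detected genes (0.06) dashed and 2-fold dotted. The members span -1.60 to 2.04, and the median of the ERK cascade list is 0.06.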

How the data were processed

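Total RNA from 2 samples was labelled with biotin by the standard Affymetrix protocol, per the labels, and hybridised to 1 array each. The authors deposited 1 signal intensity per probe set and array, already scaled so that the mean, without the top and bottom 2%, is 100 on each array, and their own log2 ratio to 1 decimal. The summarisation software was not given in the sources used here. A further deposited table held the same signal intensities, with 0 probe sets differing. Log2 differences were taken as Fbxl10 overexpression minus empty vector, as labelled, except at 4 probe sets that hold a 0.

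Older symbols were updated through the synonyms of RefSeq GRCm38.p6. A probe set was detected where its higher signal reached 19.4. Where the lower signal was below 19.4, the fold is the brighter signal over 19.4, written "at least". Such a bound rests on the deposited signals, and the authors' ratio can fall short of it. Groups were compared by size, with 2-fold (a log2 difference of 1) as the threshold. Named are all members with all their probe sets, the target gene and, from each list, every gene past 2-fold plus the highest and the lowest. A few others are said to be named after their values were seen. The members and lists were chosen with earlier results of these data known. The steps were tested on simulated data. Python 3.11.15, pandas 2.3.3 and statsmodels 0.14.6 (lowess, span 0.3) were used.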

Additional observations from a re-analysis of the deposited data

How the results depend on the processing

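The alternatives were 4 scalings (centring on the median, centring on the spike-ins, quantile normalization, lowess), the authors' deposited log2 ratio, the second table, 3 filters, raised dim signals and the median over probe sets. None of the 8 detected members changed sign in any setting that gave it a value, though the second table held the same signals and could not change one. For Etv5, detected only through its higher library, the sign as deposited came with the detection rule. It had no value where both signals had to reach the threshold. The spread that a change was set against is that between probe sets of 1 gene measured on both arrays. Spry4 moved by more than it, to -0.90 by the authors' deposited ratio and to -2.08 by the median over its probe sets, which takes in 3 probe sets below the threshold on 1 array; the cause of the former was not tested. The number of members at least 2-fold lower fell from 2 to 1 by the authors' ratio, which loses Spry4, and to 1 with a minimum signal of 100, which leaves out Dusp4 (95.1). At a threshold of 1.5-fold 4 members were higher and 2 lower. In the 6 pathway lists together, 9 genes in place of 16 were at least 2-fold higher with a minimum signal of 100, where fewer genes are counted, and 8 in place of 5 were lower by at least 2-fold when centred on the spike-ins, which moves every difference down by 0.22. Over all genes, the higher side held 64.6% of those past 2-fold as deposited (1104 and 604) and 44.2% with spike-in centring (757 and 955), 51.7% with quantile normalization (831 and 777) and 47.2% with lowess (704 and 789). Detection on both arrays gave 645 and 439, a minimum signal of 100 gave 485 and 387, and no detection filter gave 3278 and 1993. No paired analysis was possible because each group had 1 array. Signals near 19.4 limit Etv4, Etv5 and 3 of the Spry4 probe sets.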

Other observations

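A pair of negative regulators of the pathway read at high signal and within 2-fold at the brightest probe set, and were named after their values were seen. Dusp1, a phosphatase of several MAP kinases that glucocorticoids induce, read 544.0 with the empty vector and 590.0 in the library labelled Fbxl10 overexpression (log2 difference 0.12). Errfi1, an inhibitor of the EGF receptor, read 866.3 and 1430 (0.72), and its 2 detected probe sets were at 0.72 and 1.09.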
